A study of Mus musculus with 3 samples.

Results

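The genes of the platelet-derived growth factor (PDGF) system were examined in ChIP-Seq data of the nuclear factor I (NFI) transcription factors. The set consisted of the ligand genes Pdgfa, Pdgfb, Pdgfc and Pdgfd and the receptor genes Pdgfra and Pdgfrb, that is 6 of the 22367 protein-coding genes annotated on the mouse build mm9. They were chosen by name, and each gene was taken as its body with 20 kb on both sides. Primary mouse embryonic fibroblasts (MEFs) had been prepared from C57BL/6 embryos of 14.5 days and used at passages 6 to 7. The groups were an NFI immunoprecipitation from wild-type cells, the same immunoprecipitation from NFI-C knock-out cells, and input DNA of wild-type cells sequenced without immunoprecipitation. The antibody, NFI (H300), recognises the NFI group and not NFI-C alone, and the knock-out, made by an insertion into Nfic, leaves the genes of the other NFI proteins in place. There was 1 library per group, so no test was made across samples. The intervals given are 95% intervals for counting error only, exact Poisson for tag counts and exact binomial for ratios, and they compare libraries and not conditions. Where every read was counted, copies of a tag entered as separate counts, so those intervals are too narrow even for counting error.

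PDGFs are dimeric growth factors that signal through a pair of receptor tyrosine kinases and drive the growth and migration of fibroblasts and other mesenchymal cells. PDGF-A and PDGF-B are cut by furin-type proteases inside the cell, whereas PDGF-C and PDGF-D are secreted with a CUB domain that must be removed by a protease outside the cell. PDGF-A and PDGF-C act on the alpha receptor, PDGF-D acts on the beta receptor, and PDGF-B acts on both. NFI proteins bind DNA as dimers to a palindrome made of the half-site TTGGC and its complement, and they bind a single half-site more weakly.

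After unique mapping, with a single tag kept for each position and strand, the wild-type ChIP held 3350071 distinct tags, the knock-out ChIP 3132004 and the input 4100449. A window of 300 bp therefore held on average 0.393, 0.367 and 0.481 tags, and single sites rested on very few tags. The title of the knock-out sample was followed, although a description line of it names wild-type cells. Over Nfic itself the libraries, in this order, had 50, 66 and 151 tags. These do not check the label, because tags can still map to a gene with an insertion.

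Sequences that bear on the results are given first, all on the plus strand of mm9 unless stated. The deposited NFI sites are 16 bp long and were called by the authors on the wild-type tags. Matches to the NFI palindrome TTGGCANNNTGCCAA were counted with up to 2 mismatches over the 12 positions that are not N, on both strands since it is its own reverse complement. The first sequence lies in an intron of Pdgfd and holds the match with the most ChIP tags among the 6 genes. Capitals mark a deposited site and, 207 bp from it, the match.

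Pdgfd intron, chr9:6344896-6345145: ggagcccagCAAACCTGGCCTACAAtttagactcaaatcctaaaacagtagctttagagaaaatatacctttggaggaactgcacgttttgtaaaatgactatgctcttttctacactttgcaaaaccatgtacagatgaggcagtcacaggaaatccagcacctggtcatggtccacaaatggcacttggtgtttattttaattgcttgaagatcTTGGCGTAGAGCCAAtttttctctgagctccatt

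The next lines show that match alone, the match in a coding exon of Pdgfd, and the deposited site next to the start of Pdgfd, which lies in a UTR exon. Capitals mark the bases equal to the palindrome in the matches, and the whole of the deposited site.

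Pdgfd intron match, chr9:6345112-6345126: TTGGCgtagaGCCAA
Pdgfd exon match, chr9:6168890-6168904: TTtGCgcaaTGCCAA
Pdgfd start site, chr9:6168659-6168674: GCGCCAGTAACTGGGC

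The following window of 300 bp is shown because its central site, in capitals, had the most wild-type tags of all deposited sites at these genes. It lies in an intron of Pdgfc and held no exact half-site.

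Pdgfc intron, chr3:80927797-80928096: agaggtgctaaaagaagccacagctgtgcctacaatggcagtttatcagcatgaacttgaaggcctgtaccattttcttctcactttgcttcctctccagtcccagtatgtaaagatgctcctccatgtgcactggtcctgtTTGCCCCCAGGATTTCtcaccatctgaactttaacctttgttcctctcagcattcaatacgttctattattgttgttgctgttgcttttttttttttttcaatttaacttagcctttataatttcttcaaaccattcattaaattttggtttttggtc

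A last pair contrasts the start regions of 2 ligand genes, with each CpG in capitals. The Pdgfd sequence is the 250 bp before its transcription start site (TSS). The Pdgfa sequence, on the minus strand, is the UTR-free 250 bp of the first 5 kb with the most input tags, and begins 1830 bp after the TSS.

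Pdgfd promoter, chr9:6168362-6168611: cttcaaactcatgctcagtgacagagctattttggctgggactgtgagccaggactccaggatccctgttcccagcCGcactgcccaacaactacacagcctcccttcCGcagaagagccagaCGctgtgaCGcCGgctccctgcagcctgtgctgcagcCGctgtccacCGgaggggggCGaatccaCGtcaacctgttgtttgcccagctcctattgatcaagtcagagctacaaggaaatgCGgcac
Pdgfa input-rich window, chr5:139471245-139471494: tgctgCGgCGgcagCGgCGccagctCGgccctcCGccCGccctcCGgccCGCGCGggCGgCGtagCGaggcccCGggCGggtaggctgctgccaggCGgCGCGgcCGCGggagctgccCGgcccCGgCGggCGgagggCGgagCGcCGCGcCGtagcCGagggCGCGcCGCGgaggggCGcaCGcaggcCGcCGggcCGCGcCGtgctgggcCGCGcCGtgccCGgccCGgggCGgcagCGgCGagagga

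The Pdgfa window had a GC content of 87.2% and 50 CpG, and held 17 input tags and no tag of either ChIP library. The Pdgfd promoter had a GC content of 58.8% and 10 CpG, and held 2 wild-type tags and no tag of the knock-out or the input.

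Deposited NFI sites were unevenly spread over the PDGF genes. Pdgfc had 10 sites, Pdgfd 9, Pdgfrb 5 and Pdgfa 2, and none was found at Pdgfb or Pdgfra. With 50 kb on both sides Pdgfb had 4 sites, Pdgfra still none, and the total rose from 26 to 32. With 20 kb, 4 of the 6 genes had a site, where 62.9% of all protein-coding genes did. Within the gene body itself a site was found in 3 of 6 genes, Pdgfc, Pdgfd and Pdgfrb, compared with 35.3% of all genes. Only Pdgfrb had a site in the 5 kb upstream of its TSS, which was the case for 11.8% of all genes.

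Gene length differed widely within the set. Pdgfc and Pdgfd span 178 and 210 kb, Pdgfra 45.9 kb, Pdgfrb 39.9 kb, Pdgfa 21.4 kb and Pdgfb 18.9 kb. Per length the order therefore changed, with 6.26 sites per 100 kb at Pdgfrb, 4.60 at Pdgfc, 3.60 at Pdgfd and 3.26 at Pdgfa. The median of all protein-coding genes was 1.62 per 100 kb, and the density at Pdgfrb was above that of 95.7% of them.

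**Figure D1:**
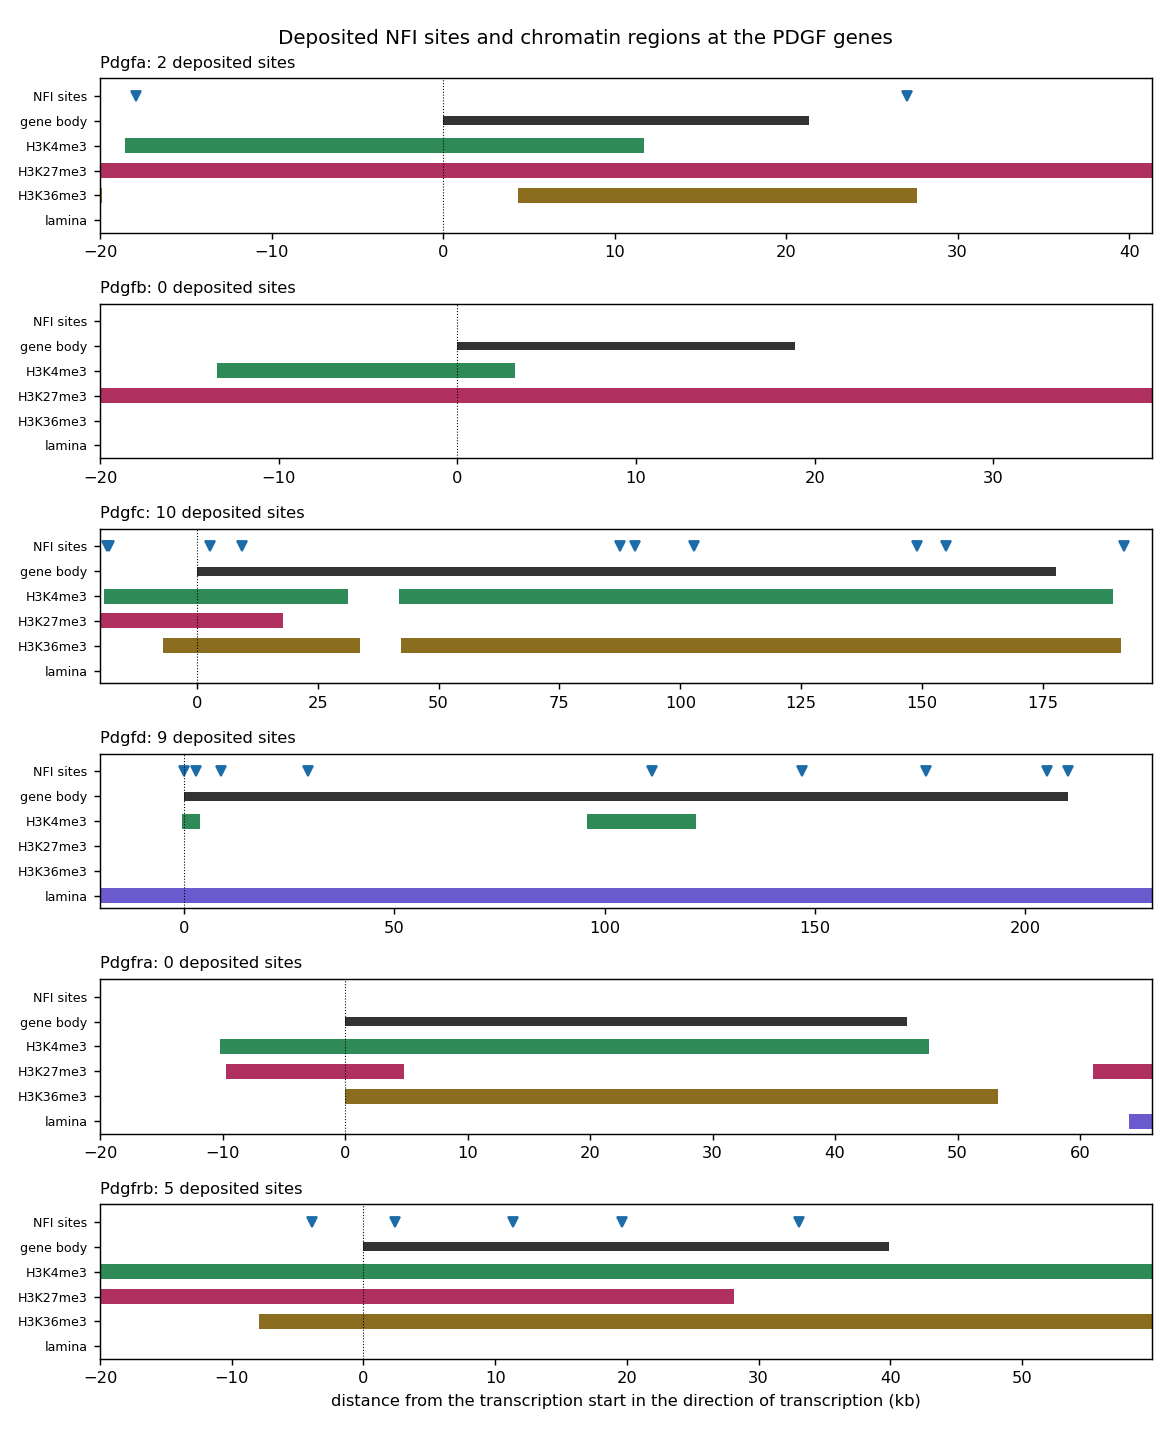
Deposited NFI sites (triangles) and deposited chromatin regions (bars) at the 6 PDGF genes, by distance from the TSS in the direction of transcription in kb. Of the 10 sites of Pdgfc and the 9 of Pdgfd, 7 each lie in introns, Pdgfb and Pdgfra have no site, and the body of Pdgfd alone lies in a lamina domain.

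Of the 26 sites, 17 lay in introns, 1 in a coding exon of Pdgfrb, 1 in a UTR exon of Pdgfd, 4 upstream and 3 downstream of the genes. In 300 bp centred on each site, the wild-type ChIP had 71 tags at all 26 sites together, the knock-out ChIP 29 and the input 26. The wild-type tags chose the sites and are a description. Knock-out tags at the sites were 3.04 times the genome average (2.03 to 4.36) and input tags 2.08 times (1.36 to 3.05). The ratio of knock-out ChIP to input in 300 bp was 1.46 (0.830 to 2.58), an interval that includes 1, and over all 39807 deposited sites it was 1.12. The interval for the 26 sites excluded 1 under each of the 3 other ways of counting. The ratio was 1.80 (1.19 to 2.73) in 600 bp, 2.03 (1.12 to 3.76) with tags shifted by 75 bp, and 1.89 (1.25 to 2.92) with every read counted, where copies of a tag count as separate reads. In 600 bp the windows of sites 1 and 2 of Pdgfc overlapped, and a tag in both was counted 2 times. No value over all deposited sites is given for these 3 ways, so whether they set the 26 sites apart was not tested.

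Tags of the knock-out ChIP were absent at 13 of 26 sites, against 58.3% of all deposited sites. Input tags were absent at 10 of 26, against 53.6%. Both were absent at 4 sites, against 32.7%, namely sites 3, 4 and 5 of Pdgfd and site 4 of Pdgfrb. A count of 0 allows up to 3 tags, and its interval reaches 3.69. Only 3 of the 13 sites, sites 2 and 5 of Pdgfc and site 4 of Pdgfrb, had more wild-type tags than that. Their intervals begin at 1.09 for 4 tags and 1.62 for 5 tags, and so overlap that of 0. A loss in the knock-out was therefore not detectable at any of the 13 sites. A threshold of 5 wild-type tags in 300 bp was reached at 1 site, against 11.2% of all sites. When each tag was moved 75 bp towards the fragment centre and 600 bp were counted, 25 of 26 sites had 5 or more, as did 39629 of the 39807 deposited sites, which were called with a threshold of 5 tags.

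**Figure D2:**
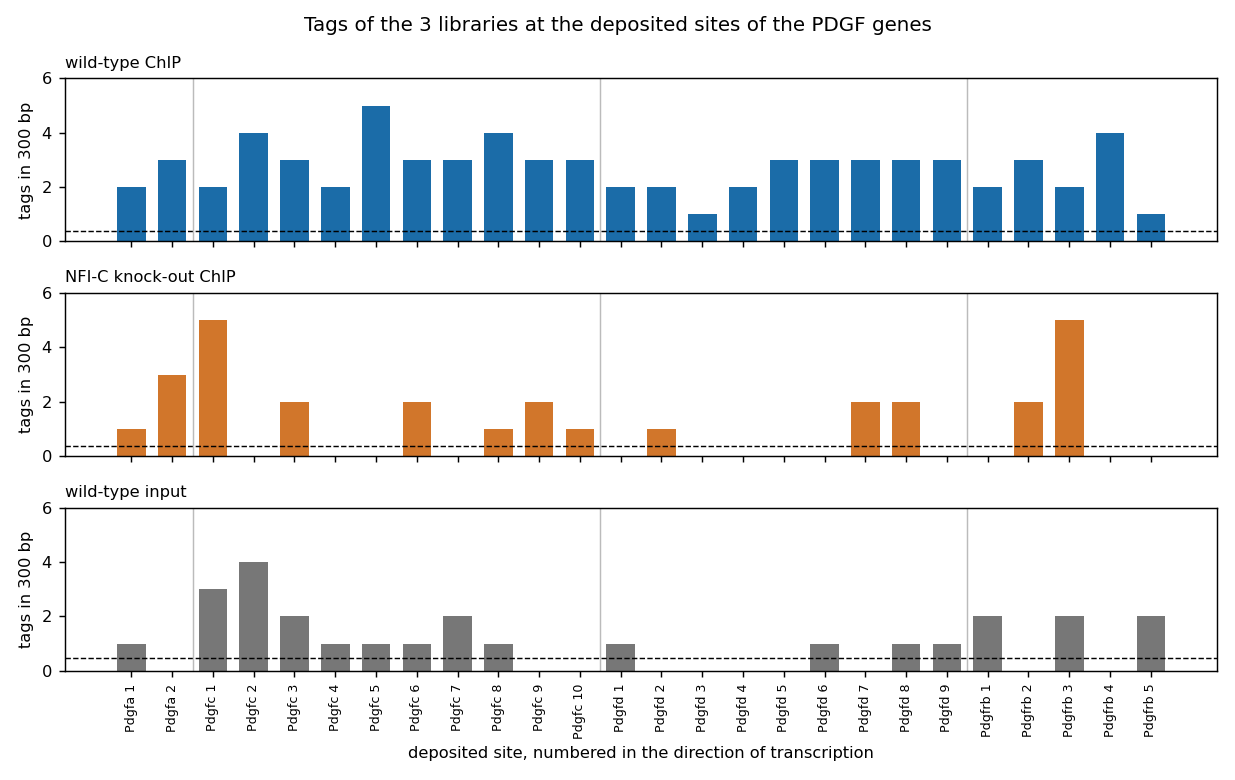
Distinct tags in 300 bp at each of the 26 deposited sites, numbered along each gene, for the 3 libraries, with the genome average of each library as a dashed line. Wild-type counts run from 1 to 5, and the knock-out and input counts reach 5 and 4 but are 0 at 13 and 10 sites.

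Pdgfc, whose product activates the alpha receptor once its CUB domain is removed, had the highest site of the wild-type ChIP. This site, the fifth along the gene, lay in an intron, 87.6 kb after the TSS, with 5 wild-type tags, 0 knock-out tags and 1 input tag. The wild-type library was thus the high one there, but the Poisson interval of its 5 tags runs from 1.62 upwards and that of 0 tags reaches 3.69, and they overlap. The eighth site of Pdgfc, 149 kb after the TSS, had 4, 1 and 1 tags in the same order.

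At the first site of Pdgfc, 18.6 kb upstream, the wild-type ChIP had 2 tags, the knock-out ChIP 5 and the input 3. The second, 18.2 kb upstream, had 4, 0 and 4, so that the input equalled the wild-type ChIP. At the third site, 2.78 kb into the gene in an intron, the counts were 3, 2 and 2. The annotated transcript Gm16000 overlaps that site. The other Pdgfc sites had 2 or 3 wild-type tags, 0 to 2 knock-out tags and 0 to 2 input tags.

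Pdgfd, the ligand of the beta receptor, had 9 sites, which held 22 wild-type tags, 5 knock-out tags and 4 input tags. The input was at 0.924 times its genome average (0.252 to 2.37) and the knock-out ChIP at 1.51 times (0.491 to 3.53). Both intervals include the values over all deposited sites, 1.87 times for the input and 2.09 times for the knock-out ChIP. Input tags were absent at 5 of the 9 sites, against 53.6% of all deposited sites. The first site, in the UTR exon 54 bp after the TSS, had 2 wild-type tags, no knock-out tag and 1 input tag. The second, 2.78 kb after the TSS in an intron, had 2, 1 and 0. At sites 3, 4 and 5 only the wild-type ChIP had tags, with 1, 2 and 3. Sites 6 to 9 had 3 wild-type tags each, with 0 to 2 knock-out tags and at most 1 input tag.

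Pdgfa, the ligand of the alpha receptor, had both of its sites outside the gene. The upstream site, 17.9 kb before the TSS, had 2 wild-type tags, 1 knock-out tag and 1 input tag. The downstream site, 27.1 kb after the TSS, had 3, 3 and 0. Here both ChIP libraries were equal.

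Among the receptors only Pdgfrb had sites. The first, 3.93 kb upstream of the TSS, had 2 wild-type tags, 0 knock-out tags and 2 input tags. The second, in an intron 2.41 kb after the TSS, had 3, 2 and 0. The fourth was the coding-exon site, 19.7 kb after the TSS, with 4 tags in the wild-type ChIP and none in the other libraries. The fifth had 1 wild-type tag and 2 input tags.

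The third site of Pdgfrb lay in an intron 11.4 kb after the TSS, with 2 wild-type tags, 5 knock-out tags and 2 input tags. The Poisson intervals of 5 tags (1.62 to 11.7) and of 2 tags (0.242 to 7.22) overlap. It was the only one of the 26 sites with a palindrome match within 150 bp, against 3.13% of all deposited sites, and the match, 111 bp away, had 1 mismatch. Together with the first site of Pdgfc it was 1 of 2 sites with more knock-out than wild-type tags, against 3.18% of all sites. An exact half-site TTGGCA, on either strand, lay in the 300 bp of 3 of the 26 sites, against 18.6% of all sites, 1 each at Pdgfc, Pdgfd and Pdgfrb.

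Palindrome matches were chosen by sequence alone, but tags at matches near a deposited site are not independent of the site list. They numbered 27 in the 6 gene regions, 7 each at Pdgfc and Pdgfd, 6 at Pdgfrb, 4 at Pdgfa, 3 at Pdgfra and none at Pdgfb. Per 100 kb this ranged from 0 at Pdgfb to 7.51 at Pdgfrb, around a median of 3.95 over all protein-coding genes. Together the 27 matches held 20 wild-type tags, or 1.89 times the genome average (1.15 to 2.91). Of these 20 tags, 5 and 4 lay at Pdgfd matches 207 and 231 bp from a deposited site. A further 3 lay at the Pdgfrb match 111 bp from such a site. The 300 bp windows of these matches overlap those of the sites, which the wild-type tags chose. Knock-out tags numbered 17, or 1.71 times (0.999 to 2.75), and input tags 18, or 1.39 times (0.822 to 2.19). Over the whole genome the matches held 1.30, 1.31 and 1.02 times the average, and each of these values lies inside the interval of the PDGF genes.

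Tags at the matches were concentrated in a few of them. The intron match of Pdgfd, 177 kb after the TSS, had 5 tags of each ChIP library and none of the input. In its printed sequence both outer half-sites of 5 letters are complete around 5 other bases, which is an exact match to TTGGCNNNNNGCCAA, a form looked for after the values were seen. It was the only such match in the 6 gene regions, and 5.68% of all protein-coding genes had one in their body with 20 kb. The genome held 1566 of them, and the wild-type ChIP there was at 3.10 times its genome average, the knock-out ChIP at 2.58 times and the input at 1.12 times.

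The match in the coding exon of Pdgfd, 285 bp after the TSS, had 4 wild-type tags, whereas the knock-out ChIP and the input were at 0. It lies 231 bp from the deposited site at the start of Pdgfd and was the only match within 1 kb of the TSS of a PDGF gene, where 7.15% of all protein-coding genes had one. The remaining Pdgfd matches had 0 or 1 wild-type tags and 0 to 2 knock-out tags. The match beside the third Pdgfrb site had 3, 4 and 1 tags. At Pdgfa, Pdgfc and Pdgfra no match had more than 1 tag of either ChIP library.

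Over the gene bodies the input exceeded the wild-type ChIP most at Pdgfa and Pdgfb, which had the highest GC content of the set, 54.9% and 55.4%. Levels are given as tags per length over the genome average. Pdgfa had 41 tags of each ChIP library and 155 of the input, which corresponds to 1.47, 1.57 and 4.53 times the average. Pdgfb had 20, 43 and 81 tags, or 0.808, 1.86 and 2.67 times. In both genes the input was the high library, and its interval did not overlap that of the wild-type ChIP.

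The other ligands differed less between libraries. Pdgfc had 321 wild-type tags, 319 knock-out tags and 366 input tags, or 1.38, 1.47 and 1.29 times the genome average. Pdgfd had 326, 281 and 338 tags, or 1.18, 1.09 and 1.00 times. For both, the intervals of the wild-type and knock-out ChIP overlapped.

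The receptor bodies had similar levels in the ChIP libraries. Pdgfra, which encodes the alpha receptor, had 72 wild-type tags, 62 knock-out tags and 105 input tags, or 1.20, 1.10 and 1.43 times the average. Pdgfrb, which encodes the beta receptor, had 86, 76 and 105 tags, or 1.65, 1.56 and 1.64 times. In neither gene did the intervals of the 3 libraries separate.

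Ranked by level in the wild-type ChIP, the genes ran from Pdgfrb over Pdgfa, Pdgfc, Pdgfra and Pdgfd down to Pdgfb, and no neighbours in this order differed beyond counting error. Neighbours in a sorted order are the closest pairs. The intervals of its ends, Pdgfrb (1.32 to 2.03) and Pdgfb (0.493 to 1.25), did not overlap. In the knock-out ChIP Pdgfb was first and Pdgfd last, and of the neighbours only Pdgfc and Pdgfra were separated (ratio 1.33, 1.01 to 1.78). In the input the order was Pdgfa, Pdgfb, Pdgfrb, Pdgfra, Pdgfc and Pdgfd. There Pdgfa exceeded Pdgfb 1.69-fold (1.29 to 2.24), Pdgfb exceeded Pdgfrb 1.63-fold (1.20 to 2.20) and Pdgfc exceeded Pdgfd 1.28-fold (1.10 to 1.49).

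**Figure D3:**
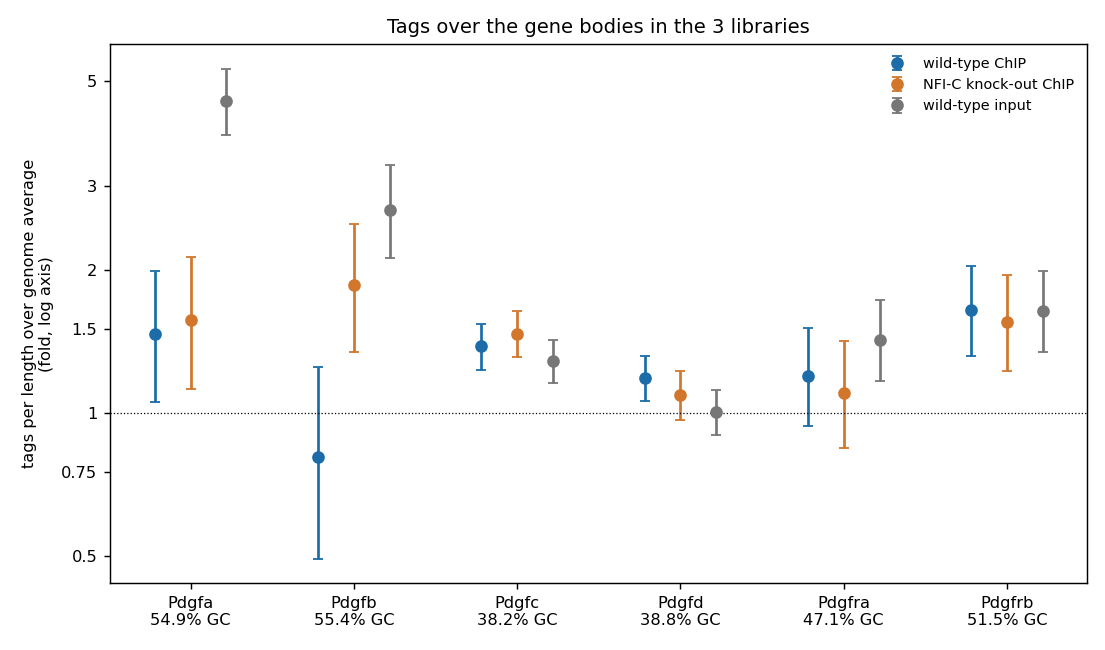
Distinct tags per length over the gene body, as fold over the genome average on a log axis, for the 3 libraries, with exact Poisson 95% intervals and the GC content of each body. The input stands above both ChIP libraries at Pdgfa, and the wild-type ChIP is the low library at Pdgfb.

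The wild-type ChIP was below the input over 2 of the 6 bodies. The ratio was 0.324 (0.224 to 0.459) at Pdgfa and 0.302 (0.175 to 0.498) at Pdgfb, and such an interval wholly below 1 was found for 25.4% of the 17377 genes with at least 20 tags. Division by the median ratio of all genes in the same bin of 2% GC gave 0.718 (0.496 to 1.02) for Pdgfa and 0.670 (0.389 to 1.10) for Pdgfb, so that both intervals then included 1. A ratio of at most 1/1.5 was found for the same 2 genes and for 30.1% of all genes tested, and a ratio of 1.5 or more for none of the 6 genes and for 4.18% of all. Pdgfd was above the input, at 1.18 (1.01 to 1.38), and 5.42% of genes had an interval wholly above 1. This interval included 1 after division by the GC bin (1.07, 0.919 to 1.25), without the deposited sites (1.06, 0.902 to 1.25), without the first 5 kb (1.16, 0.986 to 1.36), without the first wild-type run (1.17, 0.999 to 1.37) and without the second input run (1.11, 0.935 to 1.32).

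The other bodies had intervals that included 1, with a ratio of 1.07 (0.921 to 1.25) at Pdgfc, 1.00 (0.745 to 1.35) at Pdgfrb and 0.839 (0.613 to 1.14) at Pdgfra, beside a median of 0.851 over all genes tested. Other settings moved these intervals past 1. Those with every read counted are too narrow, because copies of a tag enter as separate reads. Pdgfrb was above the input within its GC bin, at 1.48 (1.10 to 1.99). Pdgfra was below it with every read counted, at 0.760 (0.602 to 0.961), so that 3 bodies were then below. Pdgfc was above it with every read counted, at 1.21 (1.08 to 1.36), and when divided by the median ratio of all gene bodies, at 1.26 (1.08 to 1.47).

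In the knock-out ChIP Pdgfa alone was below the input, with a ratio of 0.346 (0.239 to 0.491), and 24.4% of all genes tested had an interval wholly below 1. It was also the only one with a ratio of at most 1/1.5, against 29.5% of all genes tested. Pdgfb had 0.695 (0.469 to 1.02), which excluded 1 when every read was counted (0.650, 0.495 to 0.856) or when only tags without mismatch were used (0.653, 0.429 to 0.981). After division by the median of its GC bin, Pdgfa had 0.756 (0.522 to 1.07) and Pdgfb 1.52 (1.02 to 2.22). The ratios of the other genes were 1.14 at Pdgfc, 1.09 at Pdgfd, 0.948 at Pdgfrb and 0.773 at Pdgfra, and their intervals included 1.

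These 4 intervals also depended on the setting. Pdgfrb was wholly above 1 within its GC bin, at 1.36 (1.002 to 1.85), and Pdgfra wholly below 1 without the first input run, at 0.671 (0.460 to 0.981). Without that run Pdgfc had 1.25 (1.03 to 1.52) and Pdgfd 1.30 (1.05 to 1.61). Both were also wholly above 1 with every read counted, at 1.28 and 1.22, and after division by the median of all gene bodies, at 1.33 and 1.27. Pdgfc was so too with 20 kb added to the body (1.17), without its first 5 kb (1.19) and without the last knock-out run (1.18).

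The ChIP libraries differed beyond counting error over 1 body, that of Pdgfb, the ligand of both receptors. Its 43 knock-out tags against 20 wild-type tags gave a ratio of 2.30 (1.32 to 4.13), and 5.65% of all genes tested had an interval wholly above 1, while 12.5% had a ratio of 1.5 or more. The ratio lay between 2.08 and 2.47 when any 1 sequencing run was left out and was 2.15 (1.24 to 3.86) within its GC bin. The difference was largest in the first 5 kb, with 2 wild-type tags, 17 knock-out tags and 46 input tags, and over the rest of the body the ratio was 1.55 (0.815 to 2.99), an interval that includes 1. The ratio in these 5 kb was 9.09 (2.16 to 81.1), beside a median of 1.07 over 13751 genes. It rests on 2 wild-type tags, and the share of all genes with such an interval wholly above 1 is not given here. In their first 5 kb Pdgfa had 2.32, Pdgfra 2.01, Pdgfc 1.73, Pdgfd 0.695 and Pdgfrb 0.654, and each interval included 1. In the kilobase from 3 to 4 kb after the TSS of Pdgfb there were 0 wild-type tags, 10 knock-out tags and 1 input tag. It had the most knock-out tags of all 1 kb steps examined around the 6 TSS and is a description. Over the whole body the other 5 genes had ratios between 0.921 at Pdgfra and 1.07 at Pdgfa, with intervals that included 1. With every read counted, that of Pdgfd was wholly below 1, at 0.898 (0.821 to 0.982), but copies of a tag make this interval too narrow.

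**Figure D4:**
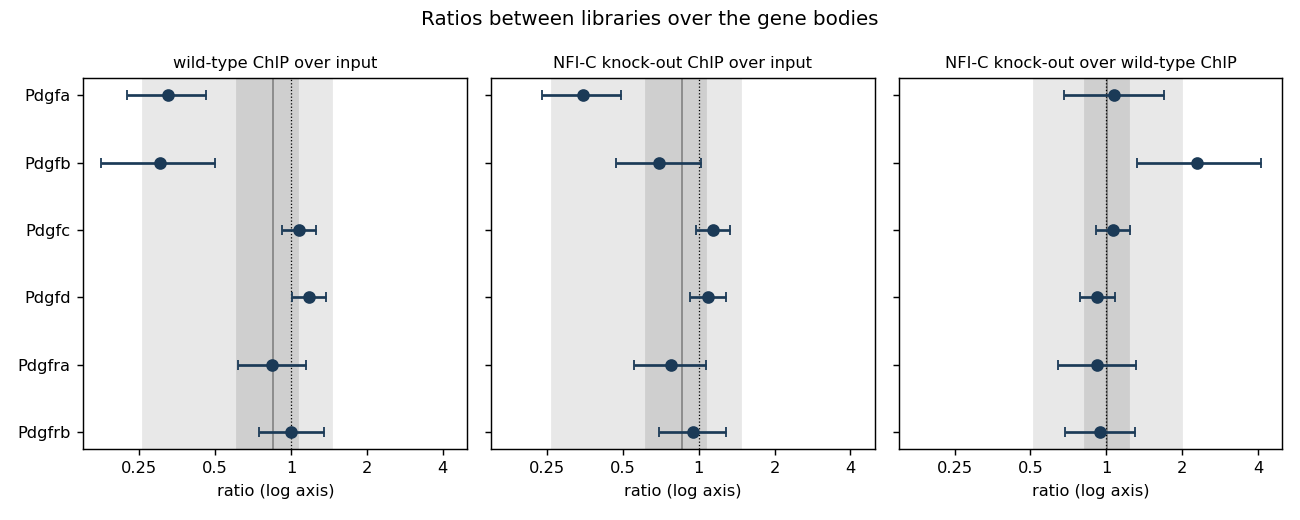
Ratios between libraries over each gene body on a log axis, with exact binomial 95% intervals. Shading spans percentiles 5 to 95 (light) and 25 to 75 (dark) of 17377 genes, and the grey line is their median; Pdgfa and Pdgfb lie low for the wild-type ChIP over input, and Pdgfb lies high for knock-out over wild-type ChIP.

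Around the TSS the input varied most between the PDGF genes. In the 2001 bp centred on the TSS, Pdgfb had 3 wild-type tags, 2 knock-out tags and 28 input tags, Pdgfc had 4, 7 and 27, and Pdgfa had 3, 4 and 18. In these 3 ligand genes the input was the high library, and the ratio of wild-type ChIP to input was 0.131 (0.0255 to 0.425), 0.181 (0.0461 to 0.520) and 0.204 (0.0385 to 0.699). An interval wholly below 1 was found for 38.7% of all promoters with tags. The knock-out ChIP was below the input at the same 3 promoters, with ratios of 0.0935 at Pdgfb, 0.339 at Pdgfc and 0.291 at Pdgfa, against 36.8% of all promoters. Pdgfra had 3, 2 and 11 tags and a ratio of 0.334 (0.0598 to 1.26).

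These promoter ratios rest on few tags and depended on the setting. For the GC bin, here and below, they were divided by the median ratio of gene bodies whose GC content lay in the promoter's bin. Promoters were thus not compared with promoters of like GC content. This division ended all 6 calls. It gave 0.885, 1.02 and 0.571 for the wild-type ChIP and 1.15, 1.07 and 0.951 for the knock-out ChIP at Pdgfa, Pdgfb and Pdgfc, each with an interval that includes 1. In 5 kb upstream of the TSS only 1 of these 6 calls, the wild-type ChIP at Pdgfa, stayed wholly below the input. At Pdgfa both calls ended without the first input run, where the ratios were 0.283 and 0.404. The knock-out call at Pdgfa also ended with tags shifted by 75 bp (upper end 1.26), without the last knock-out run (1.04) and after division by the median of all gene bodies (1.03). That at Pdgfc ended without the second input run, where the ratio was 0.481 (0.160 to 1.32).

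At Pdgfra other settings put the wild-type ChIP wholly below the input. The ratio was 0.151 (0.0271 to 0.572) with every read counted, 0.106 (0.00246 to 0.727) with only tags without mismatch, 0.138 (0.00320 to 0.949) without the second wild-type run and 0.188 (0.0652 to 0.448) over every annotated TSS. The knock-out ChIP at Pdgfra, at 0.238 (0.0256 to 1.09), was wholly below the input in 6 settings, with ratios from 0.0910 with every read counted to 0.403 over every annotated TSS.

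Pdgfd and Pdgfrb had the most wild-type tags at their promoters. Pdgfrb had 10 wild-type tags, 2 knock-out tags and 11 input tags, with a ratio of wild-type ChIP to input of 1.11 (0.424 to 2.89). That ratio was 0.551 without the second wild-type run, 0.591 with every read counted and 1.97 within the GC bin, and each interval included 1. The ratio of knock-out to wild-type ChIP was 0.214 (0.0228 to 1.00), an interval that ended just above 1 and moved in both directions with the setting. It was 0.432 (0.0390 to 3.01) without the second wild-type run, its upper end was 1.33 with only tags without mismatch, and that end was 1.06 to 1.18 without a knock-out run. Other settings took the interval wholly below 1. The ratio was 0.339 (0.109 to 0.912) with every read counted, 0.357 (0.116 to 0.938) in 5 kb upstream and 0.200 (0.0213 to 0.939) within the GC bin. Its upper end was 0.999 after division by the median of all gene bodies, 0.960 without the first wild-type run and 0.936 without the last. The knock-out ChIP over the input at Pdgfrb was 0.238 (0.0256 to 1.09), and its upper end was 0.546 with every read and 0.908 in 5 kb upstream.

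At Pdgfd there were 11 wild-type tags, 2 knock-out tags and 7 input tags. The ratio of knock-out to wild-type ChIP was 0.194 (0.0209 to 0.891), and 2.16% of promoters had an interval wholly below 1. The interval reached 1.61 without the 600 bp around deposited sites, 1.33 with only tags without mismatch, and 1.00 with every read counted, where the ratio was 0.490. In 5 kb upstream of the TSS it also reached 1.00, with a ratio of 0.214. It also included 1 when the second or the last wild-type run, or the second or the last knock-out run, was left out, with ratios from 0.218 to 0.288.

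The GC content near the TSS moved with the input counts. In 1 kb steps from 5 kb before to 6 kb after each TSS, 8 steps had a GC content of 60% or more, and they belonged to Pdgfa, Pdgfb and Pdgfc. These 8 steps held 8 wild-type tags, 16 knock-out tags and 163 input tags, or 0.764, 1.63 and 12.7 times the genome average, and the ratio of wild-type ChIP to input in them was 0.0601 (0.0255 to 0.121). The 29 steps below 50% GC, found in all 6 genes, held 1.37, 1.46 and 1.59 times the average. What part the base composition has in the ratios over whole genes was not tested beyond the division by GC bin given above.

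Input tags of Pdgfa were highest in the steps from 1 to 2 and from 2 to 3 kb after the TSS, with 37 in each, at a GC content of 73.6% and 69.8%. The wild-type ChIP had 1 tag in each of these steps and the knock-out ChIP 3 and 0. Other annotated starts of Pdgfa, 1.28, 2.33 and 2.42 kb after the outermost one, lie in this stretch, so that the input at them was 57, 62 and 61 tags in 2001 bp. The first 5 kb held 70.3% of the input tags of the Pdgfa body and 14.6% of the wild-type tags. Without them the ratio of wild-type ChIP to input was 0.931 (0.582 to 1.48) at Pdgfa and 0.629 (0.336 to 1.14) at Pdgfb.

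Pdgfra showed a rise of the input inside the gene. Its outermost TSS had 11 input tags in 2001 bp, whereas a second annotated start 3.88 kb downstream had 28 input, 10 knock-out and 3 wild-type tags. At Pdgfrb, with a GC content between 49.9% and 55.6% in these steps, no step had more than 8 input tags.

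**Figure D5:**
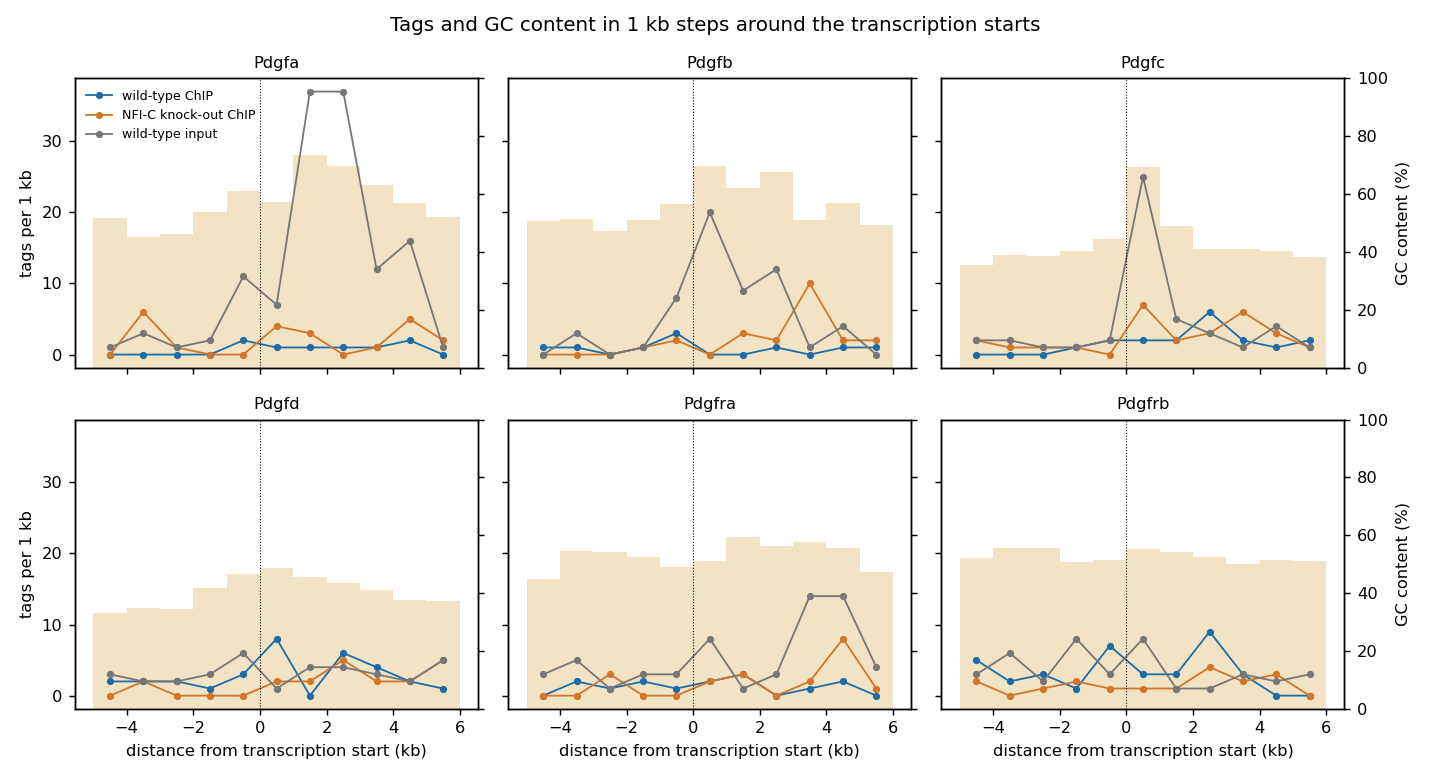
Distinct tags per 1 kb from 5 kb before to 6 kb after the TSS for the 3 libraries (lines, left axis) over the GC content of the same step (bars, right axis, %). The input rises to 37 tags at Pdgfa, 25 at Pdgfc and 20 at Pdgfb where the GC content is high, and stays at or below 6 at Pdgfd.

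The 300 bp with the most tags of a library in each body were also located, as a description. At Pdgfa the wild-type ChIP was highest 19.8 kb after the TSS, with 5 tags and none in the other libraries, 7246 bp from the nearest deposited site. At Pdgfra it was highest 11.6 kb after the TSS, with 4 tags and none in the others. Knock-out tags reached 5 in a window at Pdgfb 6.94 kb after the TSS, with 1 wild-type and 0 input tags, and 6 at the third site of Pdgfrb. The highest window of Pdgfc in the wild-type ChIP, with 6, 0 and 2 tags, was the one at its site 5.

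The deposited chromatin regions came from fibroblast data of another study, reduced by the authors to regions rich in each mark. H3K4me3 marks active and poised promoters, H3K27me3 is the mark of Polycomb repression, and H3K36me3 is laid down over transcribed bodies. In these lists H3K4me3 covered the promoter and H3K36me3 the body of 6 of 6 fibroblast genes (Col1a1, Col1a2, Vim, Thy1, Fn1 and Twist1), compared with 1 and 0 of 6 genes of endothelial, blood, epithelial, muscle and neural crest cells. H3K27me3 regions covered the promoters of 6 of these fibroblast genes and of 5 of the others. A promoter or body counts as covered where any base of it lies in a region, unless a share is given. The regions are wide, with a median of 16.5 kb for H3K4me3, 38.8 kb for H3K27me3 and 46.3 kb for H3K36me3, and overlap of marks in them does not show that the same chromosome carries both.

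H3K4me3 regions covered the promoter of all 6 PDGF genes, against 63.9% of all genes. H3K27me3 regions covered 5 of 6, against 71.1%, and the exception was Pdgfd. H3K36me3 regions overlapped the body of 4 of 6, against 55.9%, and were missing at Pdgfb and Pdgfd. Both promoter marks together were found at 5 genes, against 55.6%, and 4 of these, Pdgfa, Pdgfc, Pdgfra and Pdgfrb, also had H3K36me3 over the body, against 44.2%.

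The receptors were almost wholly inside active marks. H3K4me3 regions covered both bodies from end to end. H3K36me3 regions covered the whole of Pdgfrb, and nearly the whole of Pdgfra, from 0.017 kb after its TSS. H3K27me3 covered 10.5% of Pdgfra, up to 4.82 kb after the TSS, but covered 70.6% of Pdgfrb. All 5 Pdgfrb sites lay in H3K4me3 and H3K36me3 regions, and 4 of them in H3K27me3. Csf1r, the receptor gene for the macrophage growth factor CSF-1, lies 20.5 kb from Pdgfrb, and the H3K4me3 and H3K36me3 regions of Pdgfrb extend past it.

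The ligands differed more. Pdgfc resembled Pdgfra, with H3K4me3 over 94.0% and H3K36me3 over 95.2% of its body and H3K27me3 over 10.0%, at the start. H3K27me3 regions of 332 kb and 374 kb contained the whole of Pdgfa and Pdgfb. Pdgfa had H3K36me3 from 4.36 kb after the TSS over 79.6% of its body, and Pdgfb had none in its region, with H3K4me3 up to 3.23 kb after the TSS.

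Pdgfd had a combination found at few genes. An H3K4me3 region of 4.21 kb covered its start, a second of 25.9 kb lay 95.7 kb after the TSS, and neither H3K27me3 nor H3K36me3 was found within 20 kb. H3K4me3 over the promoter, without H3K27me3 there and without H3K36me3 over the body, was found at 0.876% of all genes. The combination counted is that of Pdgfd itself, so its low share is a description. The entire gene also lay in a lamina-associated domain of 862 kb, taken by the authors from human fibroblasts, and 18.5% of all promoters lay in such domains. Each of its 9 sites thus lay in that domain, and 3 of them in H3K4me3.

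Of the 26 sites 18 were in H3K4me3 regions, against 42.6% of all deposited sites, 13 in H3K36me3 (35.4%), 10 in H3K27me3 (54.4%) and 9 in lamina domains (32.3%). The 9 lamina sites are those of Pdgfd, so these counts follow the genes and sites of a gene are not independent. Input tags were 2.66 times the genome average (1.68 to 3.99) at the 18 sites in H3K4me3 and 0.780 times (0.161 to 2.28) at the 8 outside it, and knock-out tags were 3.18 times (1.97 to 4.86) and 2.72 times (1.18 to 5.37).

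For each gene the protein-coding gene of similar length, within 1.5 times, whose 3 body levels were nearest on the log2 scale was sought. These were Hnrnpu for Pdgfa, Cherp for Pdgfb, Dab2 for Pdgfc, Dync1i1 for Pdgfd, Pkp1 for Pdgfra and Oplah for Pdgfrb. The distance, over 3 libraries, was from 0.02 for Pdgfra to 0.26 for Pdgfa. Cherp, the nearest to Pdgfb, had 16 wild-type tags, 31 knock-out tags and 60 input tags, beside the 20, 43 and 81 of Pdgfb, and this likeness follows from how the gene was chosen.

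A list of genes of PDGF signalling, with adaptors, kinases, activating proteases and related growth factors and receptors, was examined in the same way. Of 34 symbols 33 were matched, and Hras was not. A deposited site lay in the body with 20 kb at 29 of 33, against the 62.9% given above for all genes, with a median of 2.01 sites per 100 kb beside 1.62 for all genes, and within 5 kb upstream at 6, Plat among them, against 11.8%. The wild-type ChIP was wholly below the input over 12 bodies of 33, against 25.4% of all genes tested, and wholly above it over 3, against 5.42%, with a median ratio of 0.874 beside 0.851 over all genes. H3K4me3 regions covered 32 of 33 promoters, against 63.9% of all, H3K27me3 regions 31, against 71.1%, and H3K36me3 regions overlapped 31 bodies, against 55.9%.

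Several list genes act directly on the PDGF proteins. Plat encodes the tissue plasminogen activator, which cuts PDGF-C. It had 2 sites within 5 kb upstream, and 52 wild-type tags, 24 knock-out tags and 61 input tags over its body, a ratio of knock-out to wild-type ChIP of 0.494 (0.291 to 0.815). An interval wholly below 1 was found for 3 of 33 list genes, against 5.39% of all genes tested. Plau, the urokinase that cuts PDGF-D, had 1 site and 6, 14 and 20 tags. Furin, a protease of the secretory pathway, had 4 sites and 32, 25 and 104 tags.

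The related receptor kinases showed no common pattern of sites. Kdr, a VEGF receptor, had 5 sites and 71 wild-type tags, 74 knock-out tags and 68 input tags. Flt1, another VEGF receptor, had 4 sites and 254, 219 and 334 tags. Kit, the stem cell factor receptor, lies 377 kb from Pdgfra and had 1 site and 69, 83 and 157 tags. Csf1r had 1 site and 60, 43 and 77 tags, and Flt3 had no site and 78, 87 and 125 tags. The ratio of knock-out to wild-type ChIP of these 5 receptors ran from 0.767 at Csf1r to 1.29 at Kit, and every interval included 1.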

How the data were processed

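The authors mapped the reads of each library to mm9 with ELAND and deposited them unnormalized, read by read, so that the values used here are counts of mapped reads made from what the authors deposited. They also deposited the NFI sites called on the wild-type tags (ChIP-peak, window and vicinity of 300 bp, threshold of 5 tags, at most 1 tag per position) and the boundaries of histone mark regions (ChIP-PART) and lamina domains paired with NFI sites, from which the regions were read. MicroRNA files were not used here.

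From the reads, unique matches with up to 2 mismatches on chromosomes 1 to 19, X and Y were kept, counted at the 5′ end, and reduced to 1 per position and strand. The runs of a library, 3 for each ChIP and 2 for the input, were pooled. Each distinct tag stood for 2.92 reads on average in wild-type ChIP, 3.45 in knock-out ChIP and 1.32 in input, and reads without molecular identifiers are not independent molecules, so intervals and floors cover counting error only. Genes and TSS (the outermost 5′ end) came from GENCODE vM1 on the same build, and sequences from that genome. Folds are tags per length over the library average on 2558509480 sequenced bases, and ratios are scaled by library totals. Genes with 20 tags or more over the 3 libraries formed the background.

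The genes and lists were chosen with earlier results of these data known. The rule took every deposited site of the 6 genes, and in full those with the most wild-type tags and fewer than 5 input tags, those within 5 kb of a TSS and those with a palindrome match within 150 bp. The fifth place by tags was shared by 12 sites with 3 tags, and only the 4 above it were taken by that part of the rule. The positions or counts of both Pdgfa sites, site 1 of Pdgfc, sites 3 to 5 of Pdgfd and site 5 of Pdgfrb were added after their values were seen, as were Plau and Furin. Of the signalling genes with a site within 5 kb upstream, those other than Plat are not reported here. Ratio and interval were tested on simulated counts. Alternatives are given in the closing section. Tools were Python 3.11.15 with pysam 0.24.0, SciPy 1.17.1, NumPy 2.4.6, matplotlib 3.10.9 and pandas 2.3.3, and samtools 1.23.1.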

Additional observations from a re-analysis of the deposited data

How the results depend on the processing

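Leaving out any 1 sequencing run kept 2 genes with a wild-type ChIP wholly below the input and 1 gene, Pdgfb, with the knock-out ChIP wholly above the wild-type ChIP. The number of genes with the knock-out ChIP wholly below the input ranged from 1 to 2, and it was 2 without the first input run, the second gene being Pdgfra, and with every read counted or only tags without mismatch, the second gene being Pdgfb. Over the 6 promoters together, the ratio of wild-type ChIP to input was 0.408 (0.268 to 0.607), beside 0.312 summed over all 22367 genes. For the 6 promoters it ranged from 0.268 to 0.427 without a run, was 0.235 over every annotated TSS and 0.605 in 5 kb upstream. Division by the median ratio of the same GC bin left 0 genes below the input in either ChIP library, put Pdgfrb above it in both and Pdgfb in the knock-out ChIP, and turned single promoters around, with ratios over input of 1.02 at Pdgfb in the wild-type ChIP and of 1.15 at Pdgfa and 1.07 at Pdgfb in the knock-out ChIP. Bodies without their first 5 kb, an alternative chosen after seeing the data, left 0 genes in any of these 3 comparisons. With no flank, 10 kb or 50 kb on both sides the 26 sites became 19, 22 and 32, at 3, 4 and 5 genes. Of the 26 sites 1 had 5 wild-type tags or more. With the rule that at least 0.5 of a region lies in the window, the 15 overlaps of a mark with a gene became 3. All of them were H3K36me3 over the body, where there had been 4. No promoter overlap could meet this rule, because the window is 2001 bp and the shortest region over a promoter was 4.21 kb. With at most 1 mismatch 2 of the 27 palindrome matches were left, and the form with 5 free positions, also chosen after seeing the data, had 1 match. The 29 signalling genes with a site fell to 6 within 5 kb upstream, by the smaller window. The causes of the other changes were not tested. With about 0.4 tags expected in 300 bp, depth limits what single sites and promoters can show.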
